A study of Mus musculus with 6 samples.

Results

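The cytosolic ribosomal protein genes encode the protein part of the ribosome that translates nuclear-encoded mRNA. They were taken from the deposited gene table as protein-coding rows whose symbol is that of a numbered large subunit (Rpl) or small subunit (Rps) protein, together with Rplp0, Rplp1, Rplp2 and Rpsa. This rule found 83 of the 55414 genes in the table, 51 of the large subunit and 32 of the small subunit. RNA came from microglia, the macrophages that live in brain tissue, of C57BL/6 mice aged 10 months. The mice were wild type (WT) or carried the label Selk-/-, for loss of Selenok, which encodes a selenoprotein of the endoplasmic reticulum. Each group had 3 libraries, named replicates 1 to 3 below, and values are given in that order. The sources used here do not give how the knockout allele was made, which part of the gene it removes or whether every library is a separate animal. The p-values therefore measure the spread between libraries alone, and that spread may be technical. Both libraries named replicate 3 have 2 numbers in their titles, and the sources do not say whether they were pooled.

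Each ribosome joins a small subunit, which reads the mRNA, to a large subunit, which forms the peptide bond. Its proteins are made in near-equal amounts, and their mRNAs are among the most abundant in most cells. In mammals these mRNAs begin with a run of pyrimidines, the terminal oligopyrimidine or TOP motif, through which mTOR and the RNA-binding protein LARP1 control their translation and stability. Several proteins also have a second gene, or paralog, whose product can take the place of the usual one.

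Totals ran from 21112082 to 28123871 counts per library, and 17739 of 33412 genes with any count were tested. Selenok itself stood at 112, 125 and 119.7 CPM (counts scaled to library size, here by TMM) across WT, against 112, 108 and 109 CPM under the Selk-/- label. The groups overlapped for Selenok, its log2 fold change was -0.12 (SE 0.0667, edgeR adjusted p = 0.381), and its gene-level counts did not show a loss of the transcript. Directions below therefore refer to the labels. Replicates 2 and 3 labelled Selk-/- stood apart from the other 4 libraries in their small nucleolar RNA (snoRNA) genes, which summed to 46.0 and 54.9 CPM of the unscaled total, against 318 to 327 in the others. Counts and medians over the ribosomal protein genes and the lists are given with and without these 2 libraries, the latter as a fit of Selk-/- replicate 1 alone against WT, in which 3.94% of all genes tested were lower and 6.31% higher at an unadjusted p under 0.05. The 12 microglia markers were all detected, and their sum was 25547 to 25956 CPM of the unscaled total across WT, against 20652 to 21827 under the Selk-/- label. All 12 lay below 0 in log2 fold change, at a median of -0.25. At an unadjusted edgeR p under 0.05, 7 were lower and 0 higher, against 9.74% and 9.34% of all genes tested. These marker counts are given over all 6 libraries only.

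Ribosomal protein mRNAs were lower in the libraries labelled Selk-/-, by a median of 0.21 on the log2 scale, which is 86.2% of the WT level. Of the 81 genes tested, 77 had a log2 fold change below 0, against 51.3% of all genes tested, and 4 lay above 0. At an unadjusted edgeR p under 0.05, 41 were lower and 0 were higher, where 9.74% of all genes tested were lower and 9.34% were higher. None passed edgeR's adjusted p of 0.05, where 0% of all genes tested passed. DESeq2 on the same counts called 30 ribosomal protein genes lower and 0 higher at its adjusted p, against 4.43% of genes called lower and 4.85% called higher. In 40 genes every library labelled Selk-/- lay under every WT library, against 13.7% of all genes tested. Single libraries moved these counts. Without WT replicate 2, 26 genes were lower at an unadjusted p under 0.05 (7.77% of all genes), and without Selk-/- replicate 3, 21 were (5.80% of all genes). Without WT replicate 3, 61 genes had no overlap (19.2% of all genes).

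These genes are abundant, and abundant genes have smaller errors, so the tested genes with a WT mean of at least 100 CPM give a closer background. Among those 2003 genes, 16.1% were lower at an unadjusted p under 0.05, 19.9% were lower with no overlap and 48.1% had a log2 fold change below 0. Their median log2 fold change was 0.01, and that of all genes tested was -0.01. The shares among ribosomal protein genes, 50.6% at the unadjusted p and 49.4% with no overlap, were above both backgrounds. In bulk RNA, fewer cells of a type and less RNA per cell cannot be told apart.

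The spread between libraries was of the same order as the difference. Ribosomal protein genes took 3.74%, 3.75% and 3.28% of all counts across WT, against 3.22%, 2.97% and 3.01% under the Selk-/- label. WT replicate 3 and Selk-/- replicate 1 were next to each other, and the groups did not overlap. The mean was 3.59% ± 0.271 (SD, n = 3) across WT, against 3.07% ± 0.133 (SD, n = 3) under the Selk-/- label, 85.5% of WT. Gene by gene, WT replicate 3 was the lowest WT library in 71 of the 81 genes, and Selk-/- replicate 1 was the highest of its group in 63. Replicates 1, 2 and 3 labelled Selk-/- were under the lowest WT value in 42, 64 and 66 genes.

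**Figure D1:**
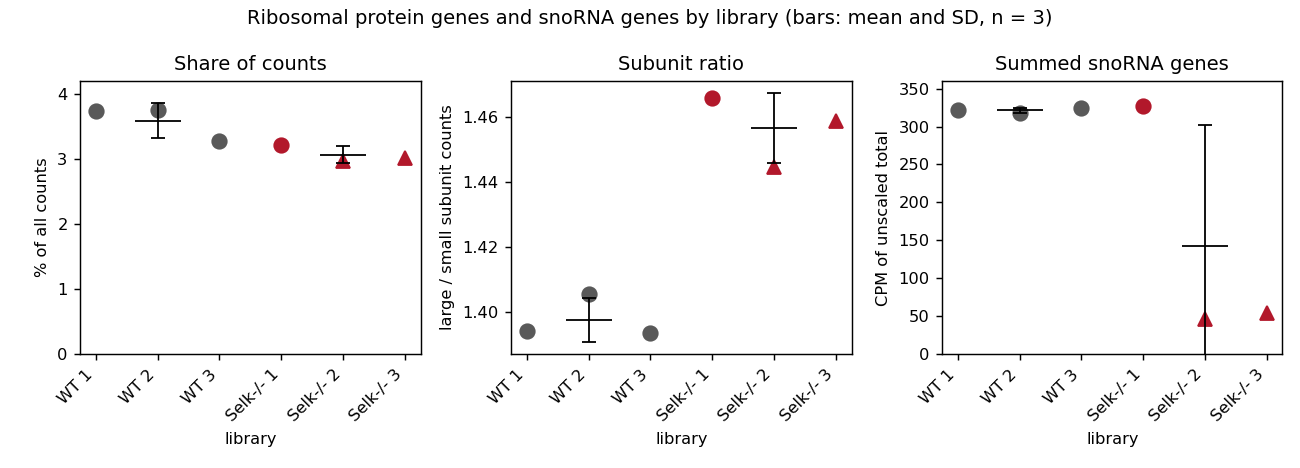
Left, the share of all counts in the 83 ribosomal protein genes (% per library). Middle, the ratio of large to small subunit counts, on an axis that does not start at 0. Right, the summed snoRNA genes (CPM of the unscaled total). Points are libraries, grey for WT and red for Selk-/-, with triangles for the 2 libraries low in snoRNA, and bars are the group mean and SD (n = 3). The ratio was 1.39 to 1.41 across WT, against 1.44 to 1.47 under the Selk-/- label, replicate 1 included.

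Selk-/- replicate 1 lay close to WT replicate 3. The median gene deviated from its WT mean by -0.13 in the former and by -0.11 in the latter on the log2 scale, against -0.26 and -0.23 in Selk-/- replicates 2 and 3. With replicate 1 set alone against the 3 WT libraries, and taken to vary as the WT libraries do, 66 of the 81 genes lay below 0 and 15 above, and the median was -0.12. In that fit 8 genes were lower at an unadjusted edgeR p under 0.05, 9.88% of the 81, against 3.94% of all genes. With the snoRNA split as a block, 11 genes were lower, 13.6%, against 4.73%, and the median was -0.14. No share among the genes with a WT mean of at least 100 CPM was computed for either fit. Neutrophil markers summed to 5843 CPM of the unscaled total in Selk-/- replicate 2, against 471 to 1166 in WT, 406 in replicate 1 and 1068 in replicate 3. The part of the snoRNA split, of the lower microglia marker sum and of the neutrophil transcripts in the ribosomal protein difference was not tested beyond these fits.

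The transcripts of the ribosomal protein genes are short, with a median of 830 bases against 2667 over the genes tested, and the libraries differed in how counts varied with length. With that trend removed, 34 genes were lower at an unadjusted edgeR p under 0.05, against 9.66% of all genes tested, and the median was -0.16. With the trends in length and in GC content both removed, 34 genes were lower, against 9.28% of all genes tested, and the median was -0.14. In that fit 17 of the 81 genes were lower with no overlap between groups, against 13.2% of all genes tested. Among the genes with a WT mean of at least 100 CPM that share was 19.9% before the trends were removed. It was not computed for these genes with the trends removed.

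The median difference was larger in the small than in the large subunit. All 32 small subunit genes lay below 0, with a median of -0.25, 83.8% of WT. Of the 49 tested large subunit genes, 45 lay below 0 and 4 above, with a median of -0.19, 87.4% of WT. At an unadjusted edgeR p under 0.05, 19 of 32 small subunit genes and 22 of 49 large subunit genes were lower, 59.4% and 44.9%, against 9.74% of all genes tested. DESeq2 called 15 lower in each subunit. Without Selk-/- replicate 3 the edgeR counts at that unadjusted p were 12 and 9, against 5.80% of all genes tested. Of the small subunit, 5 genes were lower with Selk-/- replicate 1 alone against WT, 15.6%, at a median of -0.15. The large subunit had 3, 6.12%, at a median of -0.07, against 3.94% of all genes. The medians were 0.060 apart, while the SD over genes was 0.116 in the small and 0.142 in the large subunit, so the gene distributions overlapped widely.

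**Figure D2:**
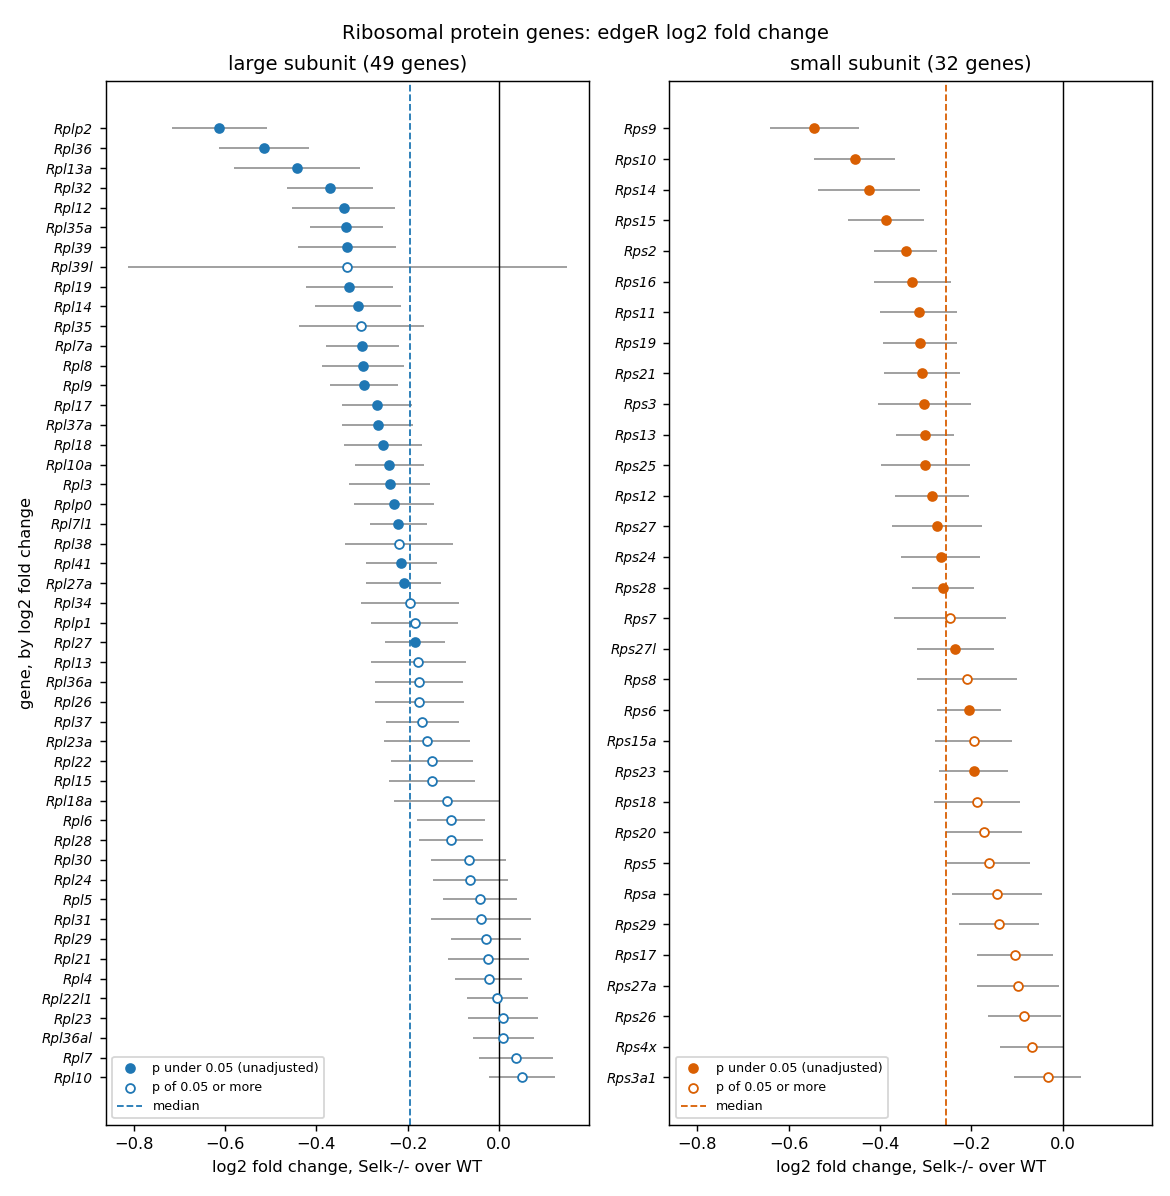
Log2 fold change (Selk-/- over WT, edgeR) of each tested ribosomal protein gene, with the large subunit (49 genes) on the left and the small subunit (32 genes) on the right. Bars are 1 SE, filled points have an unadjusted p under 0.05 and the dashed line is the subunit's median. Filled points lie to the left of 0 in both panels, and the 4 genes above 0 are all of the large subunit.

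The ratio of large to small subunit counts separated the groups. It was 1.39, 1.41 and 1.39 across WT, against 1.47, 1.44 and 1.46 under the Selk-/- label. Every library labelled Selk-/- was above every WT library, and replicate 1, which had a snoRNA sum like that of WT, had the highest ratio. The mean was 1.40 ± 0.00678 (SD, n = 3) across WT, against 1.46 ± 0.0108 (SD, n = 3) under the Selk-/- label. On the FPKM scale (fragments the authors scaled by both gene length and library size) the sums gave ratios of 1.26 to 1.28 and 1.31 to 1.33. Without Rps9, the small subunit gene that differed most, the count ratios were 1.47 to 1.48 and 1.51 to 1.53, and without Rps9 and Rps14 they were 1.55 to 1.57 and 1.58 to 1.61. The groups stayed apart, by a narrower gap. No p is given for this ratio, because it is a score over genes chosen with earlier results known.

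Rplp2, a protein of the flexible P stalk that recruits elongation factors to the large subunit, had the most negative log2 fold change of the 81 genes. It stood at 303, 261 and 273 CPM across WT, against 205, 163 and 179 CPM under the Selk-/- label. All 3 of the latter lay well under the lowest WT library. Its log2 fold change was -0.61 (SE 0.103, 65.4% of WT), with an unadjusted p of 0.000405 and an edgeR adjusted p of 0.105. DESeq2's adjusted p was 1.31e-05. Over 23 alternative settings its log2 fold change ran from -0.72 to -0.42, the latter with Selk-/- replicate 1 alone against WT.

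The rest of the P stalk differed less. Rplp0, the stalk's base, stood at 716, 677 and 609.5 CPM across WT, against 573, 603 and 533 CPM under the Selk-/- label. The groups were just apart, at a log2 fold change of -0.23 (SE 0.0881, edgeR adjusted p = 0.222). Rpl12, which lies at the foot of the stalk, was at 503, 502 and 399 CPM against 402, 337 and 370.1 CPM. Its groups overlapped, because WT replicate 3 lay just below Selk-/- replicate 1, and its log2 fold change was -0.34 (SE 0.113, edgeR adjusted p = 0.179). Rplp1, the partner of Rplp2 in the stalk's dimers, was at 955, 983 and 835 CPM against 875, 747 and 819 CPM. These groups overlapped too, and the log2 fold change was -0.18 (SE 0.0949, edgeR adjusted p = 0.333). Among tested large subunit genes, 91.8% lay below 0 and 44.9% were lower at an unadjusted p under 0.05. Over all genes tested these shares were 51.3% and 9.74%. All 4 stalk genes lay below 0, 3 of them lower at that p, with a median of -0.28. In replicate 1 alone against WT, 1 was lower and the median was -0.20.

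Of the other large subunit genes with the smallest p, Rpl36 was at 192, 193 and 161 CPM across WT, against 139, 118 and 125 CPM under the Selk-/- label. The groups did not overlap, and the log2 fold change was -0.51 (SE 0.0983, edgeR adjusted p = 0.105). Rpl35a, mutated in some patients with the red-cell disorder Diamond-Blackfan anaemia, was at 427, 444 and 398 CPM against 358, 318 and 331 CPM, again with no overlap. Its log2 fold change was -0.33 (SE 0.0794, edgeR adjusted p = 0.115). Rpl9 was close to constant within WT, at 515, 507 and 504 CPM, and was at 445, 407 and 392 CPM under the Selk-/- label. Its log2 fold change was -0.30 (SE 0.0741, edgeR adjusted p = 0.123), and Rpl32, at 348, 369 and 296 CPM against 270.0, 255 and 258 CPM, had one of -0.37 (SE 0.0942, edgeR adjusted p = 0.125). Neither gene's groups overlapped.

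Rpl13a, whose protein also acts outside the ribosome as a repressor of translation in interferon-treated human monocytic cells, was among the most abundant per length. It was at 1378, 1317 and 1021 CPM across WT, against 1036, 805 and 895 CPM under the Selk-/- label. WT replicate 3 lay under Selk-/- replicate 1, so the groups overlapped. The log2 fold change was -0.44 with a larger error than most (SE 0.138, edgeR adjusted p = 0.164).

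Around the exit of the peptide tunnel, all 8 genes (Rpl17, Rpl19, Rpl23a, Rpl26, Rpl31, Rpl35, Rpl38 and Rpl39) lay below 0, with a median of -0.24. At an unadjusted p under 0.05, 3 were lower, 37.5%. Among all tested large subunit genes 91.8% lay below 0 and 44.9% were lower at that p, against 51.3% and 9.74% of all genes tested. Of the 8, with Selk-/- replicate 1 alone against WT, 7 lay below 0, 0 were lower and the median was -0.10. Rpl39, which lines the tunnel, was at 189.5, 247 and 207 CPM across WT, against 175, 158 and 177 CPM under the Selk-/- label. Its groups did not overlap, though the WT libraries were spread widely, and its log2 fold change was -0.33 (SE 0.108, edgeR adjusted p = 0.171).

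Not every large subunit gene was lower. Rpl10, which joins the large subunit late and shapes its catalytic site, was at 742, 809.5 and 727 CPM across WT, against 779, 798 and 783 CPM under the Selk-/- label. Rpl7 was at 664, 747 and 661 CPM against 747, 691 and 688 CPM, and Rpl23 at 440.3, 496 and 495 CPM against 494, 470.2 and 475 CPM. All 3 had overlapping groups, with log2 fold changes of 0.05 (SE 0.0726, edgeR adjusted p = 0.737), 0.04 (SE 0.0809, edgeR adjusted p = 0.837) and 0.01 (SE 0.0764, edgeR adjusted p = 0.961). Rpl36al, the other gene above 0, is described with the paralogs. The sign of Rpl23 and Rpl36al turned under other scalings, so neither has a direction. Rpl5, which with Rpl11 binds Mdm2 and so stabilises p53 when ribosome assembly fails, was at 696, 756 and 681 CPM against 739.9, 667 and 666 CPM. Its groups overlapped at a log2 fold change of -0.04 (SE 0.0802, edgeR adjusted p = 0.811). Rpl11 itself was outside the rule, since its symbol cell in the table holds a second name, and its log2 fold change was -0.17 (SE 0.0840, edgeR adjusted p = 0.320).

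In the small subunit, the genes on the mRNA entry and decoding side lay below 0, as did every gene of that subunit. Rps23, at -0.19, lay nearer 0 than the subunit's median of -0.25. At an unadjusted p under 0.05, 59.4% of small subunit genes were lower, against 9.74% of all genes tested. Lower with no overlap between groups were 59.4%, against 13.7%. Rps2, Rps3, Rps9 and Rps23 were all lower by both measures, at a median of -0.32. In Selk-/- replicate 1 alone against WT, 2 were lower and the median was -0.27. Rps9 was at 867, 711 and 705 CPM across WT, against 541, 515 and 509.6 CPM under the Selk-/- label. The groups were far apart, with WT replicate 1 higher than the other WT libraries, and the log2 fold change was -0.54 (SE 0.0970, edgeR adjusted p = 0.105). Rps2 was at 446, 470.4 and 426 CPM against 349, 354 and 354 CPM, one of the tightest separations in the set, at a log2 fold change of -0.34 (SE 0.0694, edgeR adjusted p = 0.106).

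The head of the small subunit, which swivels during translocation, had 14 genes on the list, all below 0 as in the whole subunit. Of these, 8 were lower at an unadjusted p under 0.05, 57.1%, and the median over the 14 was -0.27. Over the whole small subunit 59.4% were lower at that p, against 9.74% of all genes tested. Of the 14, without the 2 libraries low in snoRNA, 13 lay below 0, 1 was lower and the median was -0.18. Rps10, a protein of the head near the mRNA entry that is ubiquitinated when ribosomes collide, was at 431, 423 and 358 CPM across WT, against 305, 293 and 287 CPM under the Selk-/- label. Rps15, at the head's interface with the large subunit, was at 547, 540.4 and 477 CPM against 422, 384 and 389.9 CPM. Neither gene's groups overlapped, and their log2 fold changes were -0.46 (SE 0.0892, edgeR adjusted p = 0.105) and -0.39 (SE 0.0830, edgeR adjusted p = 0.108). Rps12 was at 632, 622 and 571 CPM against 535, 476 and 486 CPM, a log2 fold change of -0.29 (SE 0.0802, edgeR adjusted p = 0.140). Its groups were apart as well. Rps29, also of the head, was at 452, 521 and 433 CPM against 438, 411 and 428 CPM, with overlapping groups and a log2 fold change of -0.14 (SE 0.0880, edgeR adjusted p = 0.429).

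Rps14, whose partial loss underlies the anaemia of a human myelodysplastic syndrome, was at 817, 865 and 693 CPM across WT, against 655, 536 and 579.8 CPM under the Selk-/- label. Rps13 had the smallest spread of the leading genes, at 240.3, 234 and 228 CPM against 189.6, 191 and 189 CPM. Both had groups that did not overlap, with log2 fold changes of -0.42 (SE 0.112, edgeR adjusted p = 0.129) and -0.30 (SE 0.0627, edgeR adjusted p = 0.106). Rps6, the substrate of the kinase S6K downstream of mTOR, was at 564, 561 and 533 CPM against 491, 491 and 457 CPM. Its groups were apart at a log2 fold change of -0.20 (SE 0.0701, edgeR adjusted p = 0.185). Rpsa, which is also known as a laminin receptor, was at 612, 598 and 495 CPM against 533, 525 and 485 CPM. Rps27a, made as a fusion with ubiquitin, was at 437, 489 and 416 CPM against 448, 393 and 413 CPM. Both had overlapping groups, and their log2 fold changes were -0.14 (SE 0.0983, edgeR adjusted p = 0.460) and -0.10 (SE 0.0893, edgeR adjusted p = 0.578).

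**Figure D3:**
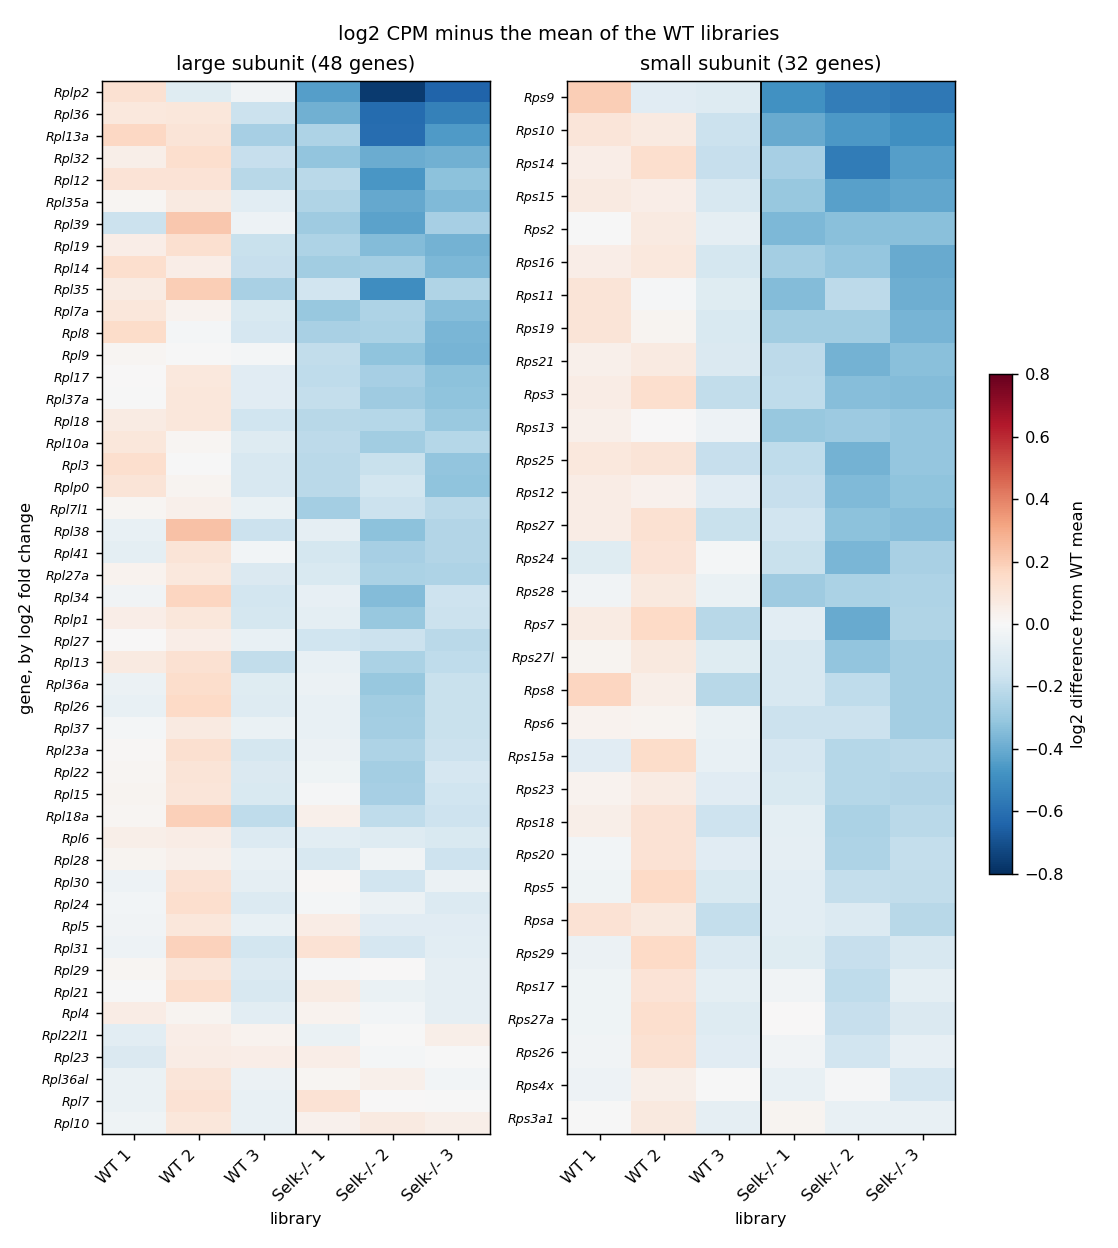
Each cell is the log2 CPM of a gene (row) in a library (column) minus the gene's mean over the WT libraries, in blue where lower and red where higher, with genes ordered by log2 fold change within each subunit. Rpl39l, under 1 CPM, is left out, so 48 large subunit genes are drawn. Blue fills most rows of Selk-/- replicates 2 and 3 and is paler in replicate 1, and WT replicate 3 is pale blue in most rows.

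Per gene length, which allows levels of different genes to be compared, 74 of the 83 genes had a mean of at least 100 FPKM over the 6 libraries, and 74 ranked among the 500 highest genes of the table. The median over genes was 352 FPKM in the large and 462 FPKM in the small subunit. The most abundant was Rplp1, at 1589 FPKM ± 142 (SD, n = 3) in WT and 1381 FPKM ± 112 in the libraries labelled Selk-/-, followed by Rpl13a, Rps14 and Rps29 with means over all libraries of 1223, 1053 and 976 FPKM. Rps4x, the X-linked gene for its protein, had 802 FPKM ± 12.99 (SD, n = 3) against 757 FPKM ± 27.6. The length implied by counts and FPKM ran from 436 to 4557 bases with a median of 926, so a gene's FPKM depends on the length the authors used for it. Across the 81 genes, the log2 fold change was only weakly related to abundance, with a Pearson's r of -0.04 and a Spearman's rho of -0.12 against mean FPKM, as a description over genes that share libraries.

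The proportion of paralog to parent separated the groups in 2 of the 4 pairs with both genes above 1 CPM. Among all single genes tested, 13.7% were lower and 12.5% higher with no overlap, and no such share was computed for ratios. Rpl7l1, the paralog of Rpl7 known for a role in ribosome assembly, was at 94.3, 95.7 and 89.7 CPM across WT, against 77.2, 82.7 and 80.2 CPM under the Selk-/- label. Its groups did not overlap, and its log2 fold change was -0.22 (SE 0.0626, edgeR adjusted p = 0.142), while that of Rpl7 was 0.04. The ratio of their CPM was 0.142, 0.128 and 0.136 across WT, against 0.103, 0.1197 and 0.117 under the Selk-/- label, lower in all 3. Rpl36al was at 68.7, 76.2 and 68.9 CPM against 71.9, 73.1 and 70.2 CPM, a log2 fold change of 0.01 (SE 0.0671, edgeR adjusted p = 0.951), while Rpl36a was at 171, 195 and 165 CPM against 171, 143 and 156 CPM, one of -0.18 (SE 0.0960, edgeR adjusted p = 0.359). Both genes had overlapping groups, yet their ratio was 0.401, 0.391 and 0.418 across WT, against 0.420, 0.510 and 0.451 under the Selk-/- label, higher in all 3 by a small margin in replicate 1.

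Rpl22l1, which in mice takes the place of Rpl22 when that gene is lost, was at 56.0, 61.5 and 60.6 CPM across WT, against 57.1, 59.2 and 61.3 CPM under the Selk-/- label. The groups overlapped, and its ratio to Rpl22, at 0.241, 0.249 and 0.286 against 0.255, 0.311 and 0.293, overlapped too. Rpl22 itself was at 232, 247 and 212 CPM against 224, 191 and 209 CPM, a log2 fold change of -0.15 (SE 0.0904, edgeR adjusted p = 0.414). Rps27l, a p53 target in human and mouse cells, and Rps27 kept their proportion, with a ratio of 0.133, 0.132 and 0.144 across WT, against 0.139, 0.137 and 0.143 under the Selk-/- label. Their log2 fold changes were -0.24 (SE 0.0841, edgeR adjusted p = 0.199) and -0.28 (SE 0.0991, edgeR adjusted p = 0.201). The tissue-restricted paralogs were scarce. Rpl39l was at 0.923, 0.340 and 0.535 CPM against 0.733, 0.388 and 0.285 CPM, Rpl3l, the heart and skeletal muscle paralog of Rpl3, had at most 3 counts in a library, and Rpl10l, the testis paralog of Rpl10, had 0 counts in every library, which allows up to 3 counts, or 0.107 to 0.142 CPM of the unscaled total depending on the library. The last pair were the only genes of the set not tested. Rpl3 was at 873, 794 and 728 CPM against 686, 705 and 639 CPM, with no overlap and a log2 fold change of -0.24 (SE 0.0891, edgeR adjusted p = 0.213).

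Many of these genes share sequence or position with other rows of the table. A pseudogene named after the gene was listed for 60 of the 83, and the table held 316 such rows, of which 125 were tested. They carried 0.0660% to 0.0764% of all counts across WT, against 0.0624% to 0.0672% under the Selk-/- label, so they took few of the reads. Of the 125, 100 lay below 0 and 11 were lower at an unadjusted p under 0.05, 8.8% against 9.74% of all genes tested, at a median of -0.13. By other measures their share was larger, with 28 lower without overlap between groups, 22.4% against 13.7%, and 29 of 111 lower in limma on log2(FPKM + 1), 26.1% against 12.9%. Without Selk-/- replicate 3, 1 pseudogene was lower at the unadjusted edgeR p, and with replicate 1 alone against WT 0 were, at a median of -0.14. Pseudogenes of Rps6 had counts equal to 11.8% of those of Rps6, and those of Rps10 8.22%. In addition 26 genes overlap another gene with counts, 22 of them on the opposite strand, and no source used here says how strand was handled. The counts of the overlapping genes exceeded 10% of the member's in 9 cases, Rpl3, Rpl18, Rpl28, Rpl31, Rpl35, Rps14, Rps18, Rps25 and Rps28, so the values of all 9 are uncertain to that extent. The largest were Kank3 at 53.01% of the counts of Rps28 and Ube2s at 20.1% of those of Rpl28, and of the genes described above Rpl3 had Syngr1 at 14.1% and Rps14 had Ndst1 at 10.5%.

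Where an mRNA starts matters for this family, since the TOP motif lies at the first bases. RefSeq promoters (build GRCm38.p6) were matched by symbol for 63 of the 83 genes, with 75 starts. A run of at least 6 C or T over the start was found at 19 of the 75, or 25.3%, against 7.25% of all 32851 starts. A run of that length anywhere from 10 bases before to 20 bases after the start was found at 52.0% of the starts of ribosomal protein genes, against 28.7% of all. The windows of 6 genes that were lower are shown with those of 4 that lay near 0, chosen after their values were seen, to show the pyrimidine run beside the size of the difference. Capitals mark the run over the start, or otherwise the longest run of C or T of at least 6 bases, the annotated start is the base that follows the leading 10, and where RefSeq gives more than 1 start the one with the run is shown.
Rplp2, chr7:141447641-141447670, plus strand: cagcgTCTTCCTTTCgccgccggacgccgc
Rps9, chr7:3704031-3704060, plus strand: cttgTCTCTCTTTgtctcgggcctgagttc
Rps10, chr17:27635225-27635254, minus strand: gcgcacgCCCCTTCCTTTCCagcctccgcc
Rpl13a, chr7:45128726-45128755, minus strand: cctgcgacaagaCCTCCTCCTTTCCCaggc
Rpl35a, chr16:33056472-33056501, plus strand: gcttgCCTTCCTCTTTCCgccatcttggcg
Rps6, chr4:86857348-86857377, minus strand: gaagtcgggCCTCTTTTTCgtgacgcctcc
Rpl10, chrX:74270806-74270835, plus strand: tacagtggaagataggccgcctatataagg
Rpl23, chr11:97782420-97782449, minus strand: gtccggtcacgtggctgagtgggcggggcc
Rpl36al, chr12:69184048-69184077, minus strand: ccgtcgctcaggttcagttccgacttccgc
Rpl22l1, chr3:28805498-28805527, plus strand: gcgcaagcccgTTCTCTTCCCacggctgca

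In 5 of the first 6 windows the run lies over the annotated start, and in Rpl13a it begins 2 bases after it. The windows of Rpl10, Rpl23 and Rpl36al have no run of that length, and that of Rpl22l1 has one just after the start. Over all matched genes the contrast was small. The 19 tested genes with a run over a start had a median log2 fold change of -0.27, and the 42 without had one of -0.22. At an unadjusted edgeR p under 0.05, 11 of the 19 and 23 of the 42 were lower, against 9.74% of all genes tested. These values were not computed without the 2 libraries low in snoRNA. An annotated start can lie some bases from the one used in these cells.

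In the 250 bases before the start, on either strand, CCGGAA, the core bound by ETS factors, was present at 36.0% of starts of ribosomal protein genes and at 12.03% of all starts. GGGCGG, the core of the Sp1 box, was present at 49.3% and 32.7%, ATGGCG, part of the motif of YY1, at 14.7% and 5.73%, and TATAAA at 5.33% and 12.4%. None of these strings contains another, and a match is a description of the letters only.

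The log2 fold change was more closely related to base composition than to length. Across the 81 genes, the log2 fold change against GC content of the transcript gave a Pearson's r of -0.35 and a Spearman's rho of -0.32, where all 17629 genes tested with a transcript gave -0.15 and -0.24. Against transcript length the values were 0.13 and 0.11, and 0.11 and 0.14 over all genes. These are descriptions across genes that share libraries. Genes that carry a snoRNA inside an intron did not stand apart from the others. The 30 host genes had a median of -0.21, and the 51 tested genes without one had a median of -0.22. At an unadjusted edgeR p under 0.05, 15 and 26 were lower, 50% and 51.0%, against 9.74% of all genes tested. With Selk-/- replicate 1 alone against WT, the medians of the 2 sets were -0.11 and -0.12. A look at chromosomes, made after the values were seen, found 14 of the genes on chromosome 7, Rplp2, Rps9, Rpl13a and Rps13 among them. All 14 lay below 0 with a median of -0.30 and 10 lower at an unadjusted p under 0.05, against a median of -0.20 and 31 of 67 on other chromosomes. All 14 lay below 0 with Selk-/- replicate 1 alone against WT, at a median of -0.22, and the median of the 67 on other chromosomes was -0.08. The 1380 tested genes of chromosome 7 as a whole had a median of -0.01 and 9.49% lower.

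Partners of the ribosome whose symbols lie outside the rule had values on the same side. Fau, the precursor of a small subunit protein, was at 466, 484 and 419 CPM across WT, against 387, 393 and 371 CPM under the Selk-/- label. Rack1, a signalling scaffold on the head of the small subunit, was at 674, 639 and 542 CPM against 523, 504 and 481 CPM. Neither had overlapping groups. Their log2 fold changes were -0.25 (SE 0.0790, edgeR adjusted p = 0.166) and -0.30 (SE 0.0961, edgeR adjusted p = 0.169).

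Other RNAs with a TOP start did not share the direction as a whole list. Of 22 such genes outside the ribosome, 12 lay below 0 and 10 above, with a median of -0.05. At an unadjusted p under 0.05, 4 were lower and 3 higher, 18.2% and 13.6%, against 9.74% and 9.34% of all genes tested. Named after their values were seen, the 4 lower were Eef1b2, Eef1g, Eef2 and Eif3h. The 3 higher were Cct4, Ipo7 and Gas5, a non-coding RNA. The elongation factor genes Eef1a1, Eef1b2, Eef1d, Eef1g and Eef2 all lay below 0, at log2 fold changes from -0.32 to -0.08. Without the 2 libraries low in snoRNA, 9 lay below 0 and 13 above, 0 were lower and 3 higher, and the median was 0.05. Eef1a1, the factor that brings aminoacyl-tRNA to the ribosome, was at 6093, 5291 and 5368 CPM across WT, against 4784, 5155 and 4799 CPM under the Selk-/- label. Its groups were just apart, at a log2 fold change of -0.18 (SE 0.0832, edgeR adjusted p = 0.281). Tpt1 was at 1765, 1811 and 1581 CPM against 1626, 1433 and 1485 CPM, with overlapping groups and a log2 fold change of -0.18 (SE 0.0864, edgeR adjusted p = 0.300). Of 12 genes for mTOR, its regulators and LARP1, 3 lay below 0 and 9 above, and 0 were lower and 2 higher at an unadjusted p under 0.05, 16.7% against 9.34%. Without those libraries, 1 lay below 0 and 11 above, and 1 was higher. Among them Rheb, the GTPase that activates mTOR, was at 81.0, 89.2 and 86.1 CPM against 102, 96.9 and 95.6 CPM, with no overlap and a log2 fold change of 0.20 (SE 0.0659, edgeR adjusted p = 0.173). Akt1s1, an inhibitory subunit of the mTOR complex, had one of -0.14 (SE 0.0914, edgeR adjusted p = 0.433) with overlapping groups.

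**Figure D4:**
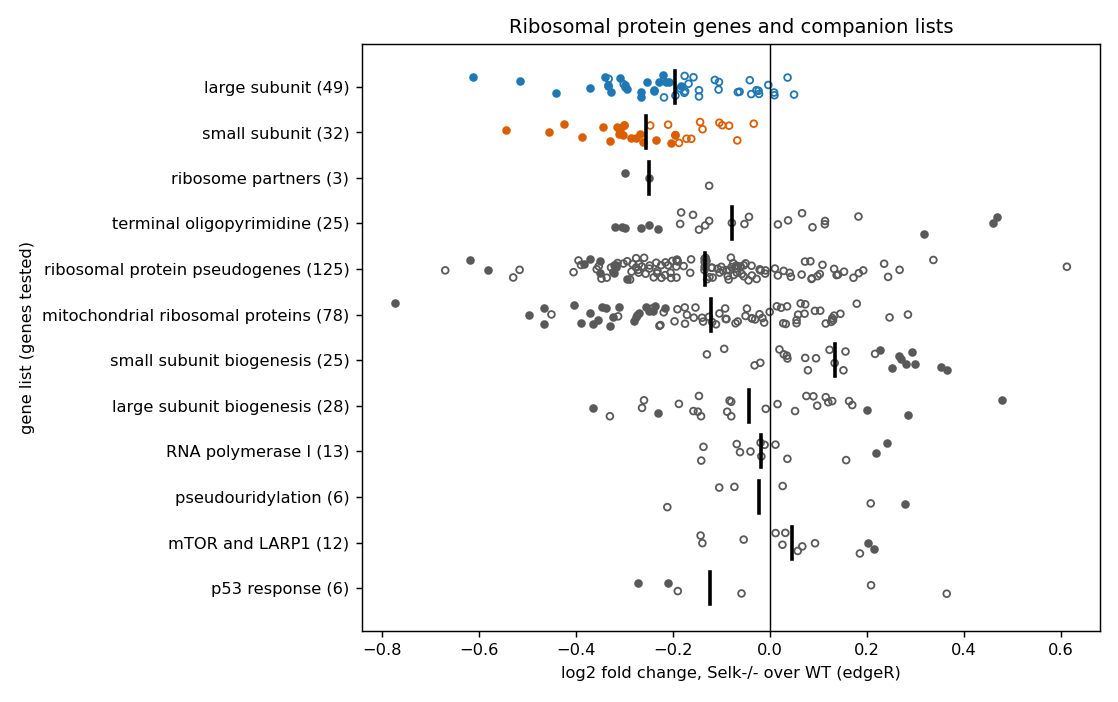
Log2 fold change (Selk-/- over WT, edgeR) of each tested gene in the ribosomal protein genes and the companion lists, with the number of genes tested in brackets. Filled points have an unadjusted p under 0.05, and bars are medians. The terminal oligopyrimidine list is drawn with the 3 ribosome partners in it, at a median of -0.08. The medians of both subunits lie left of those of the other lists apart from the partners, and that of small subunit biogenesis lies at 0.13.

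The factors that assemble ribosomes lay mostly on the other side or were split. Of 25 small subunit biogenesis factors, 21 lay above 0 and 4 below, with a median of 0.13, and 9 were higher and 0 lower at an unadjusted p under 0.05, 36% against 9.34% of all genes tested. With Selk-/- replicate 1 alone against WT, 21 lay above 0, 5 were higher, 20% against 6.31% of all genes, and the median was 0.21. The 2 most abundant of them had small differences, in opposite directions. Emg1, an rRNA methyltransferase, was at 55.8, 62.0 and 61.1 CPM across WT, against 62.6, 65.1 and 61.1 CPM under the Selk-/- label, a log2 fold change of 0.08 (SE 0.0688, edgeR adjusted p = 0.563), and its groups overlapped. Fbl, the methyltransferase of box C/D snoRNA particles, was at 59.8, 56.8 and 58.1 CPM against 53.4, 51.6 and 54.6 CPM, with no overlap and a log2 fold change of -0.13 (SE 0.0616, edgeR adjusted p = 0.302).

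Large subunit biogenesis factors were split, with 15 below 0 and 13 above, 2 lower and 3 higher at an unadjusted p under 0.05, 7.14% and 10.7% against 9.74% and 9.34% of all genes tested, and a median of -0.04. Without the 2 libraries low in snoRNA, 12 lay below 0 and 16 above, 0 were lower and 2 higher, and the median was 0.08. Eif6, which keeps a new large subunit from joining a small one, was at 64.7, 60.5 and 56.2 CPM across WT, against 49.8, 47.0 and 44.0 CPM under the Selk-/- label. The groups did not overlap, and the log2 fold change was -0.37 (SE 0.0802, edgeR adjusted p = 0.108). Sbds, which helps to release Eif6, was at 79.7, 73.6 and 72.0 CPM against 81.4, 81.3 and 81.3 CPM. It lay the other way without overlap, at a log2 fold change of 0.12 (SE 0.0641, edgeR adjusted p = 0.366). Of 13 genes for RNA polymerase I and its factors, which make the rRNA precursor, 8 lay below 0 and 5 above, with 0 lower and 2 higher at an unadjusted p under 0.05, 15.4% against 9.34%, and a median of -0.02. Without those libraries, 4 lay below 0 and 9 above, 0 were lower or higher, and the median was 0.09. Ubtf, their upstream binding factor, was at 150.2, 144 and 139 CPM against 152, 145 and 139.8 CPM. The 6 genes of the pseudouridylation particle and its assembly were 3 below and 3 above 0, with 0 lower and 1 higher, 16.7% against 9.34%. Without those libraries they were 2 below and 4 above, with 0 lower or higher.

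Mitochondrial ribosomal proteins, which are nuclear-encoded but serve a separate ribosome, also lay mostly below 0. Of 78 genes, 56 lay below 0 and 22 above, 23 were lower and 0 higher at an unadjusted p under 0.05, 29.5% against 9.74% of all genes tested, and the median was -0.12. With Selk-/- replicate 1 alone against WT the median was -0.04 and 3 genes were lower, 3.85%, close to the 3.94% of all genes. Of the 2 most abundant, Mrpl52 was at 31.0, 32.0 and 26.8 CPM across WT, against 25.5, 23.7 and 27.0 CPM under the Selk-/- label, with WT replicate 3 just inside the other group. Its log2 fold change was -0.24 (SE 0.0963, edgeR adjusted p = 0.243), and that of Mrpl24 was 0.06 (SE 0.0717, edgeR adjusted p = 0.703).

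Genes of the p53 response, which can follow a defect in ribosome assembly, gave no common direction. Of 6, 4 lay below 0 and 2 above, with 2 lower and 0 higher at an unadjusted p under 0.05, 33.3% lower against 9.74% of all genes tested. With Selk-/- replicate 1 alone against WT, 4 lay below 0, with 0 lower and 1 higher. Cdkn1a, the cell-cycle inhibitor induced by p53, was at 174, 283 and 206 CPM across WT, against 386, 219 and 249 CPM under the Selk-/- label. Only replicate 1 lay above all WT libraries, and the log2 fold change was 0.37 (SE 0.270, edgeR adjusted p = 0.503). Bax, an effector of apoptosis, had one of -0.06 (SE 0.0720, edgeR adjusted p = 0.686) with overlapping groups.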

How the data were processed

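The deposited table gives raw counts per gene, made by the authors, and the authors' FPKM values, for 6 libraries. Alignment was with Hisat2 2.0.5, quantification with stringtie 2.2.0 and the authors' testing with DESeq2 1.20.0, per the labels' protocols. The submitters' processing notes instead name Bowtie 0.12.2 with mm8 and mm9. No source used here gives the table's build or how strand and multiply mapped reads were handled.

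Groups came from the genotype labels, and replicate numbers are names in accession order. The deposited counts were fitted over the whole table with edgeR 4.0.16 in R 4.3.3, using TMM, filterByExpr, robust quasi-likelihood tests, two-sided, with no covariate, and Benjamini-Hochberg adjustment over all 17739 genes tested. SEs come from the F statistic. DESeq2 1.42.0 and limma 3.58.1 served as alternatives, the latter also on log2(FPKM + 1) and log2(FPKM + 0.1). The edgeR steps were tested on simulated data. Transcript length and GC content are those of GENCODE M21, joined by gene ID, with 99.4% of genes tested matched. The upper bound of 3 counts given for a gene with 0 counts covers counting error only.

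The named genes were, in each subunit, the 5 with the smallest p and the 3 most abundant by FPKM, every gene above 0, paralogs with their parents, the P stalk, Rpl5, Rps6, Rpsa and Rps27a, and from each companion list the 2 most abundant. The members and lists were chosen with earlier results of these data known, so lists are described by counts and medians with no test. The values of 1 gene among the ribosome partners are not reported here.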

Additional observations from a re-analysis of the deposited data

How the results depend on the processing

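Over 23 alternative settings, 28 of the 35 named ribosomal protein genes tested kept their direction in every setting, and the median over genes stayed below 0. DESeq2 called 30 ribosomal protein genes at its adjusted p and a filter of at least 10 CPM in 3 libraries gave 1 (Rplp2), against 0 with edgeR as described. Genes lower at an unadjusted p under 0.05 were 41, but 8 without the 2 libraries low in snoRNA, with a median of -0.12, and 11 with that split fitted as a block. Genes lower with no overlap were 40, but 17 with the trends in length and GC content removed. Without both libraries titled with 2 numbers they were 61, but that leaves 2 libraries a group, where no overlap is easier to reach. The large minus small subunit difference of medians was 0.060, and 0.087 with the GC trend removed, an alternative chosen after seeing the data, as were the removal of both trends and the replicate block below. The cause of these shifts was not tested.

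Leaving out each replicate in turn gave 21 to 49 genes lower at the unadjusted p, 35 to 61 with no overlap, 0 past the adjusted p, medians of -0.26 to -0.16 and subunit differences of 0.049 to 0.065.

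Signs turned for 7 genes near 0 or near the detection limit. Rpl22l1 was at 0.0047 with DESeq2 size factors, 0.011 with TMM computed without ribosomal protein genes, 0.0012 with limma-voom, 0.00052 without both libraries titled with 2 numbers and 0.069 with the length trend removed. Rpl36al was at -0.0021 with library size alone, -0.018 with no filter, -0.0015 at 10 CPM, -0.019 with limma-voom and -0.015 in all 3 fits on FPKM. Rpl23 was at -0.0025, -0.019, -0.0018, -0.0058 and -0.0066 under the same settings, and -0.031 with the GC trend removed. Without the libraries low in snoRNA and with the block, Rpl39l was at 0.30 and 0.28, Rpl5 at 0.077 and 0.057, and Rps27a at 0.021 and 0.0016. Leaving out replicates gave -0.045 to 0.034 for Rpl22l1, -0.018 to 0.067 for Rpl36al, -0.048 to 0.047 for Rpl23, -0.81 to 0.12 for Rpl39l and -0.081 to 0.011 for Rpl5.

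The titles of the 2 groups share the numbers 3 and 6, the former in a title with 2 numbers, and no source used here says that a number marks a shared animal, litter or batch. The deviations of the 2 same-numbered pairs from their group means correlated at 0.20 and -0.15 across genes. Pairs with different numbers ran from -0.15 to 0.26. Deviations within a group depend on each other, so these values cannot decide whether a number marks a shared animal, litter or batch. With the shared number as a replicate block, which leaves the contrast to 4 libraries, 49 ribosomal protein genes were lower at the unadjusted p, against 9.72% of all genes tested, and 0 passed the adjusted p. The median was -0.31 and the subunit difference 0.033, while Rpl22l1 was at 0.039, Rpl7 at -0.031 and Rpl36al at -0.015. With 3 libraries a group, 1 replicate can decide a call, and depth limits only the scarce paralogs.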

Other observations

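Outside the ribosome, the marker lists of other brain and blood cells were summed as CPM of the unscaled total, and each list had all its markers above 0 in at least 1 library. All 11 border macrophage markers lay below 0 in log2 fold change, with sums of 785 to 1139 across WT, against 354 to 716 under the Selk-/- label, and the groups did not overlap. B cell markers summed to 188 to 234 against 146 to 157, again without overlap, with 4 of 5 tested markers below 0. Sums overlapped between groups for T and NK cells (21.8 to 33.8 against 20.1 to 29.7), monocytes and dendritic cells (133 to 134 against 74.8 to 211), endothelial cells (2519 to 3033 against 2737 to 3702), mural cells and fibroblasts (1253 to 1410.3 against 1322 to 1833), oligodendrocytes (294 to 463 against 283 to 469.98), astrocytes (303 to 437 against 299 to 364), neurons (7.64 to 9.32 against 7.62 to 16.0), erythroid cells (106 to 122 against 64.0 to 178) and choroid plexus and ependymal cells (2112 to 3358 against 2224 to 3013). Their part in the ribosomal protein difference was not tested.

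Rps27rt, a copy of Rps27 that the symbol rule leaves out, was at 11.5, 13.1 and 9.38 CPM across WT, against 9.82, 7.81 and 7.78 CPM under the Selk-/- label. The groups overlapped at a log2 fold change of -0.42 (SE 0.161, edgeR adjusted p = 0.223). Rps4l, which the table lists as a transcribed processed pseudogene, had a log2 fold change of -0.12 (SE 0.106, edgeR adjusted p = 0.568).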
